A study of Homo sapiens with 9 samples.

Results

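The 42 genes described here encode proteins of mitosis and the spindle checkpoint. They were taken by gene symbol, with no threshold on a measured value, and all 42 were found among the 58174 genes of the deposited tables. Their RNA was measured by total RNA-seq in ES-2 cells, a line derived from an ovarian cancer. Cells received control siRNA (siC), an siRNA pool against IGF2BP1 (siIGF2BP1) or an siRNA pool against SRF (siSRF), with 3 libraries per group, and RNA was taken 72 h after transfection. IGF2BP1 is an oncofetal mRNA-binding protein, and SRF is the serum response factor, a transcription factor. The groups share the line, the medium and the transfection and differ in the siRNA. Each protein was depleted with a single siRNA pool in a single line, and the labels do not say whether the libraries of a group came from separate cultures, so the p-values measure the spread between these libraries, which may be technical.

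Most of these genes belong to a transcriptional programme of dividing cells. Their mRNAs accumulate in G2 and mitosis, when the transcription factors B-MYB (encoded by MYBL2) and FOXM1 act with the MuvB complex at a promoter element called the CHR, and they are repressed in resting cells. Their products then act in order. CDK1 with B-type cyclins starts mitosis, kinetochores attach the chromosomes to the spindle, and the checkpoint holds back the anaphase-promoting complex (APC/C) until every chromosome is attached. APC/C with CDC20 then marks securin and cyclin B for destruction, so that the chromosomes separate and the cell divides. In bulk RNA, fewer mitotic cells and less RNA per mitotic cell cannot be told apart.

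The libraries held 6421764 to 9416175 reads on genes (median 7377934), and a member held 55 to 4451 reads in a library. Levels are FPKM, that is reads scaled to gene length and library size, and differences are log2 fold changes of FPKM plus 0.1. These were tested with limma across all genes tested, and a gene was called when its Benjamini-Hochberg adjusted p was at most 0.01. The targeted genes followed the labels. IGF2BP1 measured 12.8, 13.5 and 12.1 FPKM in siC, 4.18, 4.14 and 4.02 in siIGF2BP1 and 13.7, 14.6 and 14.3 in siSRF, and its mean in siIGF2BP1 was 32.2% of siC. SRF measured 13.6, 14.1 and 15.99 FPKM in siC, 5.80, 5.42 and 6.80 in siIGF2BP1 and 1.63, 1.36 and 1.42 in siSRF, and its mean in siSRF was 10.1% of siC. In siIGF2BP1 the SRF mRNA was also at 41.3% of siC (log2 fold change -1.26, SE 0.11, adjusted p = 0.00111), so both knockdowns carried less SRF mRNA. Keratin 7 (KRT7), keratin 18 (KRT18), vimentin (VIM) and N-cadherin (CDH2) mRNAs were present, while the ovarian and epithelial markers MUC16, EPCAM and CDH1 were listed at 0 in every siC library. Of 8 leukocyte, endothelial and fibroblast markers, PTPRC, CD3E and LUM were listed at 0 in all 9 libraries, CD68, VWF and DCN were listed at 0 in at least 1 library of each group, and PECAM1 lay between 0.0424 and 0.387 FPKM. The other, PDGFRB, a receptor of fibroblasts and pericytes, measured 0.149, 0.165 and 0.116 FPKM in siC, 1.08, 0.903 and 0.794 in siIGF2BP1 and 0.0982, 0.138 and 0.190 in siSRF, and was called higher in siIGF2BP1 than in siC (2.07, SE 0.30, adjusted p = 0.00684) and than in siSRF (2.09, SE 0.31, adjusted p = 0.00331). Summed over the 8 markers, the level was 0.4413 to 0.6399 FPKM in siC, 1.152 to 1.502 in siIGF2BP1 and 0.1807 to 0.3394 in siSRF, and the part of these markers in the results was not tested.

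All 42 genes were expressed in siC, from a mean of 6.28 FPKM for SPC25 to 139 FPKM for CKS2, with a median of 33.7 FPKM. Each lay at or above percentile 70.5 of the 19799 protein-coding genes. The median coefficient of variation between siC libraries was 6.37%, but it reached 23.6% for MKI67 and 32.1% for SPC25. Summed over the 42 genes, the level was 1760, 1685 and 1726 FPKM in siC, 1384, 1370 and 1378 FPKM in siIGF2BP1 and 1542, 1537 and 1457 FPKM in siSRF. The groups did not overlap in this sum, with siC highest, siSRF between and siIGF2BP1 lowest.

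Upon IGF2BP1 depletion, 12 of the 42 genes were called lower and 0 higher, against 3.57% of the 22292 genes tested called lower and 3.55% called higher. At an unadjusted p under 0.05 in limma, 25 members were lower and 1 higher, against 14.5% and 14.7% of all genes tested. Limma-voom on reads called 19 lower and 1 higher, against 8.48% and 8.59%. The siIGF2BP1 values were entirely below the siC values for 29 members (17.6% of all genes tested) and entirely above for 1 (18.1%). The median log2 fold change of the members was -0.24, beside 0.02 over all genes tested. Over the 4545 genes averaging 10 FPKM or more, the median was -0.06, and 12.5% were called lower and 8.73% higher. Among these 4545 genes, the libraries separated downward for 1587 and upward for 1096.

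Upon SRF depletion, 13 members were called lower and 3 higher, against 5.34% and 6.85% of 21857 genes tested, and limma-voom called 21 lower and 4 higher, against 10.7% and 12.7%. The libraries separated downward for 26 members (19.0% of all genes tested) and upward for 5 (20.9%). The median log2 fold change was -0.23, beside 0.01 over all genes tested. Over the 4719 genes averaging 10 FPKM or more, the median was 0.10, and 12% were called lower and 21.2% higher. Among these 4719 genes, the libraries separated downward for 1167 and upward for 2044. Both comparisons use the same 3 siC libraries. The members called lower in both were the 7 genes CCNB1, PLK1, AURKB, INCENP, BIRC5, SPC24 and UBE2C. A further 5 were called lower upon IGF2BP1 depletion alone (CDC20, PTTG1, HMMR, PRC1 and RACGAP1), and 6 upon SRF depletion alone (MYBL2, MKI67, CCNB2, CDC25B, CENPF and CDCA3). Of these 6, MKI67 was also at 65.4% of siC in siIGF2BP1. That change was not called with limma (adjusted p = 0.0899) but was called lower by limma-voom. NUF2, BUB3 and ECT2 rose upon SRF depletion. Whether a gene responded differently is a question for the direct comparison of the knockdowns, given here and below. It did not call HMMR (log2 difference -0.047, adjusted p = 0.721), PRC1 (-0.14, 0.0989), RACGAP1 (-0.11, 0.0557), CDC25B (0.26, 0.0503) or CDCA3 (-0.12, 0.384). CCNB2 and CENPF were not called in it either. For these genes, a call in 1 knockdown alone does not show a different response.

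**Figure D1:**
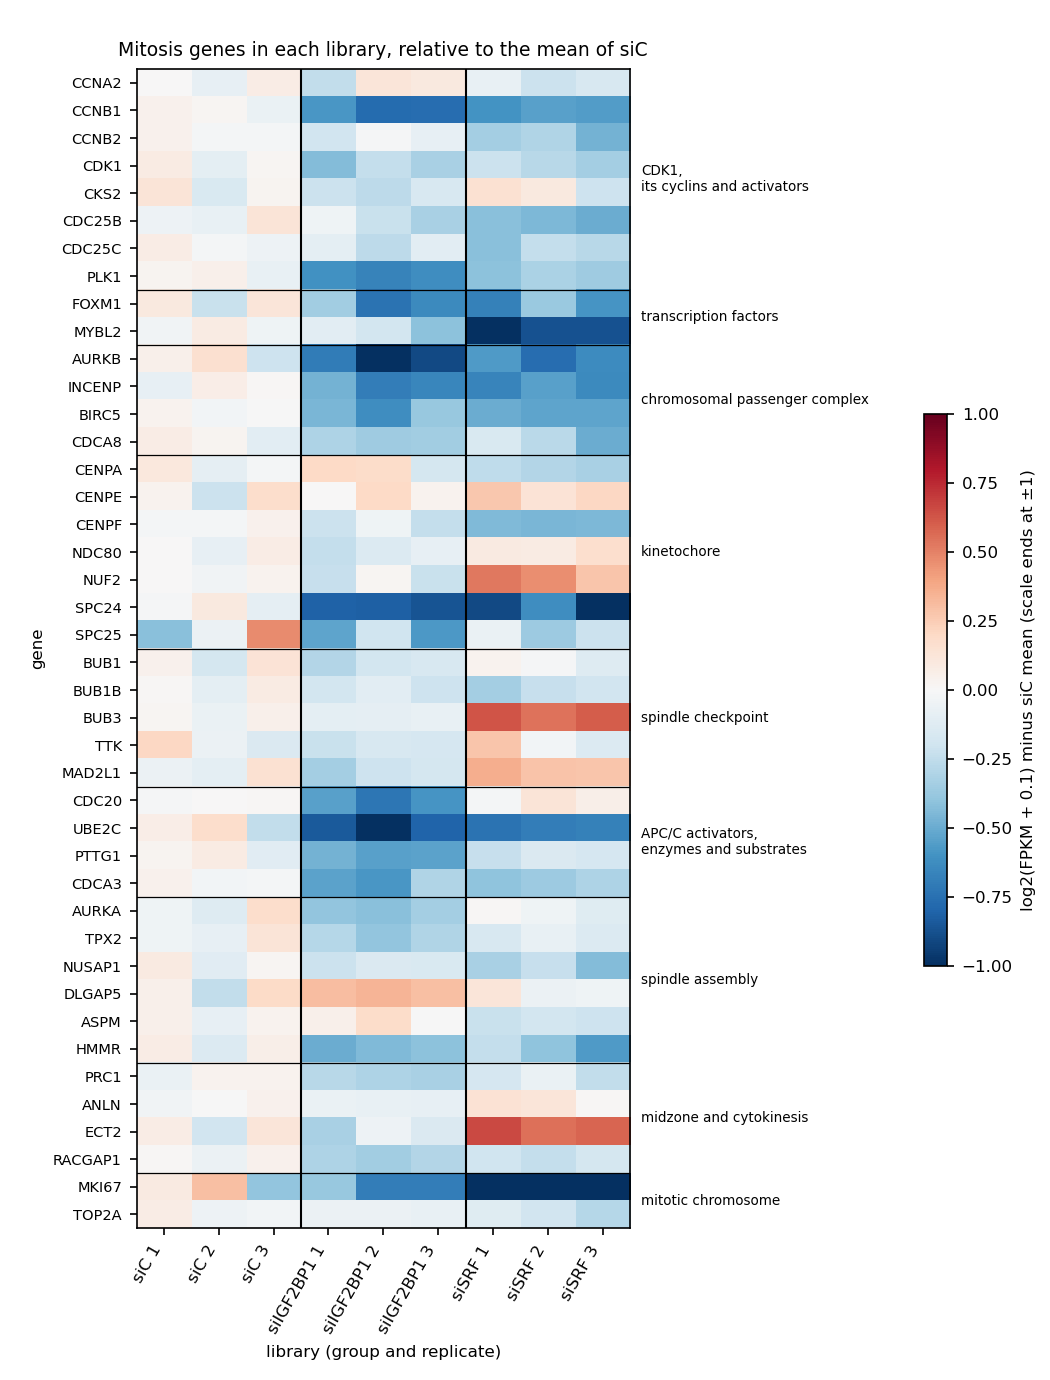
Heatmap of the 42 genes (rows, grouped by role) in the 9 libraries (columns, grouped by siRNA). Colour gives log2(FPKM + 0.1) minus the mean of the siC libraries, and the scale ends at ±1. SPC24 and UBE2C are blue in all 6 knockdown libraries, and BUB3, ECT2 and NUF2 are red in the 3 siSRF libraries.

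The fold changes moved with base composition. Across the 42 genes, Pearson's r between GC content and log2 fold change was -0.60 for siIGF2BP1 and -0.60 for siSRF (Spearman's rho -0.60 and -0.63), beside -0.10 and -0.15 (rho -0.13 and -0.22) across all genes tested that had a GC value. These are descriptions across genes that share the libraries, and the siC libraries serve in both. The members have a lower GC content than the genes tested (median 44.8% against 47.5%) and are longer (3873 against 2744 bases). MYBL2 (60.3% GC), INCENP (59.0%), CDC25B (58.2%), PLK1 (57.2%) and SPC24 (57.1%), all called lower in at least 1 comparison, lie at the GC-rich end. NUF2 (39.1%) and ECT2 (38.1%), which rose in siSRF, lie at the AT-rich end with CENPE (35.1%), CDK1 (35.8%) and HMMR (37.5%), of which HMMR was called lower in siIGF2BP1. With trends along GC content and length taken out of each library, 16 members were called lower in siIGF2BP1 and 17 in siSRF. In the same fits, 1020 of 22292 and 1110 of 21857 genes tested were called lower, beside 796 and 1167 without this step. The part of base composition in the changes of single genes was otherwise not tested.

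The core of mitotic entry was represented by CDK1, its cyclins, its subunit CKS2, the phosphatases CDC25B and CDC25C that activate it, and PLK1, the polo kinase that starts and guides mitosis. Of these 8 genes, 2 were called lower in siIGF2BP1 and 4 in siSRF. CCNB1, which encodes cyclin B1, measured 99.2, 97.9 and 92.2 FPKM in siC, 64.5, 56.6 and 56.8 in siIGF2BP1 and 63.6, 66.2 and 65.4 in siSRF. Both knockdowns lay below siC in every library, at 61.5% of siC in siIGF2BP1 (log2 fold change -0.70, SE 0.064, adjusted p = 0.00142) and 67.5% in siSRF (-0.57, SE 0.043, adjusted p = 0.000568). The difference between the knockdowns was -0.14, adjusted p = 0.132, with a 95% interval from -0.28 to 0.00472. PLK1 measured 19.3, 19.6 and 18.01 FPKM in siC, 12.4, 11.9 and 12.3 in siIGF2BP1 and 14.2, 15.2 and 14.8 in siSRF. Its 3 groups did not overlap, and siIGF2BP1 was lowest. PLK1 was at 64.3% of siC in siIGF2BP1 (-0.63, SE 0.053, adjusted p = 0.00108) and 77.7% in siSRF (-0.36, SE 0.054, adjusted p = 0.00515), and siIGF2BP1 lay below siSRF (-0.27, SE 0.046, adjusted p = 0.00554). With GC content and length taken out, the PLK1 call in siSRF ended (log2 fold change -0.20, adjusted p = 0.0533).

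CCNB2, another B-type cyclin gene, measured 52.1, 49.8 and 49.8 FPKM in siC, 44.3, 50.3 and 47.7 in siIGF2BP1 and 39.9, 41.1 and 36.4 in siSRF. The siSRF libraries lay apart from siC, at 77.4% (-0.37, SE 0.055, adjusted p = 0.00520), and siIGF2BP1 was not called (-0.094, adjusted p = 0.333). CCNB2 was higher in siIGF2BP1 than in siSRF without reaching the threshold (0.28, adjusted p = 0.0212). CDC25B was also called lower in siSRF, from a mean of 15.9 ± 1.27 to 11.5 ± 0.321 FPKM (SD, n = 3; -0.46, SE 0.069, adjusted p = 0.00534), a call that ended with GC content and length taken out (log2 fold change -0.28, adjusted p = 0.0329). Cyclin A2 (CCNA2), CDK1, CKS2 and CDC25C were not called in any comparison. CDK1 had lower values in both knockdowns, at 79.3% and 82.5% of siC with no overlap, but its adjusted p was 0.0241 and 0.0207. CCNA2, whose product acts from S phase on, was at 99.9% of siC in siIGF2BP1 with an interval of the log2 fold change from -0.27 to 0.25.

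The transcription factors of the programme differed from each other. MYBL2 measured 35.01, 37.9 and 34.8 FPKM in siC, 33.2, 31.6 and 26.9 in siIGF2BP1 and 17.6, 19.5 and 19.5 in siSRF. The siSRF libraries lay far below the other groups, at 52.6% of siC (-0.92, SE 0.062, adjusted p = 0.000458). The siIGF2BP1 libraries lay just below siC (-0.23, adjusted p = 0.133), and they were higher than siSRF by 0.69, SE 0.089, adjusted p = 0.00176. FOXM1 measured 19.4, 15.5 and 19.8 FPKM in siC, 14.2, 10.8 and 11.6 in siIGF2BP1 and 11.3, 13.97 and 12.02 in siSRF. Its siC values were the more scattered, and neither comparison was called (-0.58, adjusted p = 0.0356 in siIGF2BP1 and -0.55, adjusted p = 0.0214 in siSRF), although both knockdowns lay below siC in every library. Limma-voom called FOXM1 lower in both.

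The promoters of these genes are shown because the CHR element and the CCAAT box, bound by NF-Y, are the known shared features of the programme. RefSeq promoter windows (GRCh38.p14, 250 bases before to 50 after each start) matched 34 of the 42 genes with 44 starts. Not matched were TPX2, AURKA, RACGAP1, TTK, UBE2C, BUB3, FOXM1 and BIRC5. The CHR letters TTTGAA or TTTAAA, on either strand, were found in 75.0% of the members' windows and in 24.0% of all 35116 windows. CCAAT, on either strand, was in 75.0% against 34.6%, and both motifs stood together in 59.1% against 9.27%. Windows of 116 genes from the wider mitosis lists described below held CHR letters in 40.3%, CCAAT in 50.3% and both in 24.5%. An E2F site (TTTCGCGC, TTTGGCGC or TTTCCCGC, either strand) was in 9.09% against 2.74%. The CArG box bound by SRF was in 0 of the 44 windows against 1.29% of all. At so low a share, 0 of 44 does not set the members apart, and binding of SRF was not tested. A match describes letters only, and other spellings of these elements were not searched. Stretches of 7 promoters are given from 150 bases before to 30 bases after the start, in the direction of the gene, with CHR and CCAAT letters of either strand in capitals. The genes were chosen to cover the call patterns. CCNB1, PLK1 and SPC24 were called lower in both knockdowns, CDC20 in siIGF2BP1, and MYBL2 and MKI67 in siSRF. NUF2 was called higher in siSRF.
CCNB1 (chr5:69167000-69167179, plus strand): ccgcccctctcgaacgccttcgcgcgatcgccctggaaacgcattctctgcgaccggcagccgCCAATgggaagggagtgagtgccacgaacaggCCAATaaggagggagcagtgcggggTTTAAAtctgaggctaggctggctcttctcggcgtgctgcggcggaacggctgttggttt
PLK1 (chr16:23678739-23678918, plus strand): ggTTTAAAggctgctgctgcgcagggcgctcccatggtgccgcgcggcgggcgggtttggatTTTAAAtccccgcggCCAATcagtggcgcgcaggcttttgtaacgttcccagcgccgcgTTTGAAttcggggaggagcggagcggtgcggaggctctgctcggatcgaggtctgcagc
CDC20 (chr1:43358831-43359010, plus strand): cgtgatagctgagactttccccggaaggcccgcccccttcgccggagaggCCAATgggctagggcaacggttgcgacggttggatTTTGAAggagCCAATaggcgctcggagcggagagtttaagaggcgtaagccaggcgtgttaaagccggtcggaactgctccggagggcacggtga
SPC24 (chr19:11155753-11155932, minus strand): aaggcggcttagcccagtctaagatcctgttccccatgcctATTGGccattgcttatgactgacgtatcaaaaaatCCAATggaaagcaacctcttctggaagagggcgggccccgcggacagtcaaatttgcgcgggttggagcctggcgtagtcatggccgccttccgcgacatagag
MYBL2 (chr20:43666964-43667143, plus strand): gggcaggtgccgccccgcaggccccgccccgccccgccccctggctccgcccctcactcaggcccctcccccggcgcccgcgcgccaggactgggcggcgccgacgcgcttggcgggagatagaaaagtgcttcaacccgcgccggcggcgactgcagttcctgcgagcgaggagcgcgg
MKI67 (chr10:128126394-128126573, minus strand): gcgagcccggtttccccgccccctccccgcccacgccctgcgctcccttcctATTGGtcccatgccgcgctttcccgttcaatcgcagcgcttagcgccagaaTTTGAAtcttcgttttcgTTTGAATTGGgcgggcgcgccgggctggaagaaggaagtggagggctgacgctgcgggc
NUF2 (chr1:163321804-163321983, plus strand): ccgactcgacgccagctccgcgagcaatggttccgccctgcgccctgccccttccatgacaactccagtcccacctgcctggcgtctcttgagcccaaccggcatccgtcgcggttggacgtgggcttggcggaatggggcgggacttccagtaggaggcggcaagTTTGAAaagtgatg

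The stretches differ in these letters. CCNB1 has its CHR match 30 bases before the start and CCAAT boxes 87 and 55 bases before it. PLK1 has CHR matches 148, 88 and 29 bases before the start, CDC20 has 1 at 65 bases, and MKI67 has 2, at 47 and 29 bases. SPC24, which fell in both knockdowns, has no CHR match and 2 CCAAT boxes, and MYBL2 has neither motif in the 300 bases of its window. NUF2 has its only CHR match 17 bases into the transcript. Of the 34 genes, 29 had a CHR match in at least 1 window. AURKB, BUB1, CCNA2, MYBL2 and SPC24 had none.

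The chromosomal passenger complex, in which AURKB is the kinase that corrects wrong attachments and INCENP, survivin (BIRC5) and borealin (CDCA8) place it, had 3 of 4 genes called lower in each knockdown. AURKB measured 46.4, 50.2 and 38.8 FPKM in siC, 27.6, 22.4 and 23.9 in siIGF2BP1 and 30.3, 26.4 and 29.1 in siSRF. INCENP measured 28.2, 31.2 and 30.1 FPKM in siC, 21.5, 18.4 and 18.9 in siIGF2BP1 and 18.8, 20.4 and 19.1 in siSRF. BIRC5 measured 40.6, 38.88 and 39.6 FPKM in siC, 28.96, 25.7 and 30.6 in siIGF2BP1 and 28.2, 27.5 and 27.5 in siSRF. For all 3 genes the 6 knockdown values were under the siC range, while the knockdowns overlapped each other. AURKB was at 54.7% of siC in siIGF2BP1 (-0.87, SE 0.12, adjusted p = 0.00530) and 63.3% in siSRF (-0.65, SE 0.10, adjusted p = 0.00666), and the latter call ended with GC content and length taken out (log2 fold change -0.52, adjusted p = 0.0182). INCENP was at 65.7% (-0.61, SE 0.074, adjusted p = 0.00380) and 65.2% (-0.61, SE 0.056, adjusted p = 0.00103). BIRC5 was at 71.6% (-0.48, SE 0.07, adjusted p = 0.00651) and 69.8% (-0.52, SE 0.037, adjusted p = 0.000515). CDCA8 lay below siC in all 6 knockdown libraries, at 79% and 81.2% of siC, and missed the threshold (adjusted p = 0.0103 and 0.0673). The direct comparison called none of the 4 genes. Its 95% intervals ran from -0.17 to 0.18 for INCENP and from -0.13 to 0.19 for BIRC5.

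Among the 7 kinetochore genes, SPC24 fell in both knockdowns, CENPF fell in siSRF and NUF2 rose in siSRF. SPC24 and NUF2 encode subunits of the same NDC80 complex, the part of the kinetochore that grips microtubules. SPC24 measured 30.6, 33.1 and 29.1 FPKM in siC, 17.6, 17.5 and 16.97 in siIGF2BP1 and 16.5, 20.02 and 15.1 in siSRF. Its knockdown libraries overlapped each other and lay well below siC, at 56% in siIGF2BP1 (-0.83, SE 0.058, adjusted p = 0.000601) and 55.6% in siSRF (-0.85, SE 0.11, adjusted p = 0.00322). NUF2 measured 18.7, 18.1 and 19.04 FPKM in siC, 15.8, 18.8 and 15.98 in siIGF2BP1 and 26.9, 25.8 and 22.6 in siSRF. The siSRF libraries lay above all 6 others. NUF2 was at 135% of siC in siSRF (0.43, SE 0.072, adjusted p = 0.00805), was not called in siIGF2BP1 (-0.14, adjusted p = 0.277), and was lower in siIGF2BP1 than in siSRF (-0.57, SE 0.094, adjusted p = 0.00495). The rise of NUF2 was no longer called with GC content and length taken out (log2 fold change 0.19, adjusted p = 0.0708) or with every gene above 0 tested (adjusted p = 0.0103). The other subunits of the NDC80 complex were not called. NDC80 was at 90% and 108% of siC, and SPC25 at 71.7% and 83.4%, the latter with siC values spread from 4.53 to 8.49 FPKM.

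CENPF, a large protein of the outer kinetochore, measured 34.1, 33.98 and 35.5 FPKM in siC, 29.7, 33.6 and 29.3 in siIGF2BP1 and 25.4, 25.1 and 25.2 in siSRF. The siSRF libraries were closely spaced and below the rest, at 73.1% of siC (-0.45, SE 0.038, adjusted p = 0.000822). In siIGF2BP1 the values were nearer to siC (-0.16, adjusted p = 0.145), and the difference between the knockdowns missed the threshold (0.29, adjusted p = 0.0121). CENPA, the histone H3 variant that marks centromeres, was at 105% of siC in siIGF2BP1 and 81.4% in siSRF, and CENPE, a kinetochore motor, at 105% and 115%. Neither was called in any comparison.

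Of the 5 spindle checkpoint genes, 0 were called lower in either knockdown with limma. At an unadjusted p under 0.05, 2 of them were lower in siIGF2BP1 (BUB1B and MAD2L1, against 14.5% of all genes tested), while in siSRF 1 was lower (BUB1B, against 16.0%) and 2 higher (BUB3 and MAD2L1, against 18.7%). Limma-voom called 0 of the 5 in siIGF2BP1, and 1 lower, BUB1B, and 2 higher in siSRF. BUB3, a subunit of the checkpoint complex that also binds kinetochores, measured 35.6, 33.6 and 36.4 FPKM in siC, 32.9, 33.1 and 33.5 in siIGF2BP1 and 54.5, 51.4 and 53.7 in siSRF. Every siSRF library lay above all 6 others. BUB3 was at 151% of siC in siSRF (0.59, SE 0.046, adjusted p = 0.000646) and 94.2% in siIGF2BP1 (-0.086, adjusted p = 0.263), and siIGF2BP1 lay below siSRF (-0.68, SE 0.035, adjusted p = 6.13e-05). MAD2L1, which encodes the checkpoint protein MAD2, measured 15.1, 14.7 and 17.4 FPKM in siC, 12.3, 13.6 and 13.8 in siIGF2BP1 and 20.2, 19.1 and 19.04 in siSRF. Its groups did not overlap, with siIGF2BP1 lowest and siSRF highest. Neither comparison with siC was called (-0.24, adjusted p = 0.115 and 0.31, adjusted p = 0.0290), but the direct comparison was (-0.55, SE 0.058, adjusted p = 0.000789). The kinases of the checkpoint were not called in any comparison. BUB1B, which encodes BUBR1, measured 29.5, 27.3 and 30.95 FPKM in siC, 25.7, 27.1 and 25.3 in siIGF2BP1 and 23.1, 24.9 and 25.6 in siSRF. Both knockdowns lay below siC and overlapped each other, at 89.1% (-0.16, adjusted p = 0.130) and 83.9% of siC (-0.25, adjusted p = 0.0360). BUB1 was at 86% and 97.2% of siC, and TTK, which encodes MPS1, at 87.5% and 103%.

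**Figure D2:**
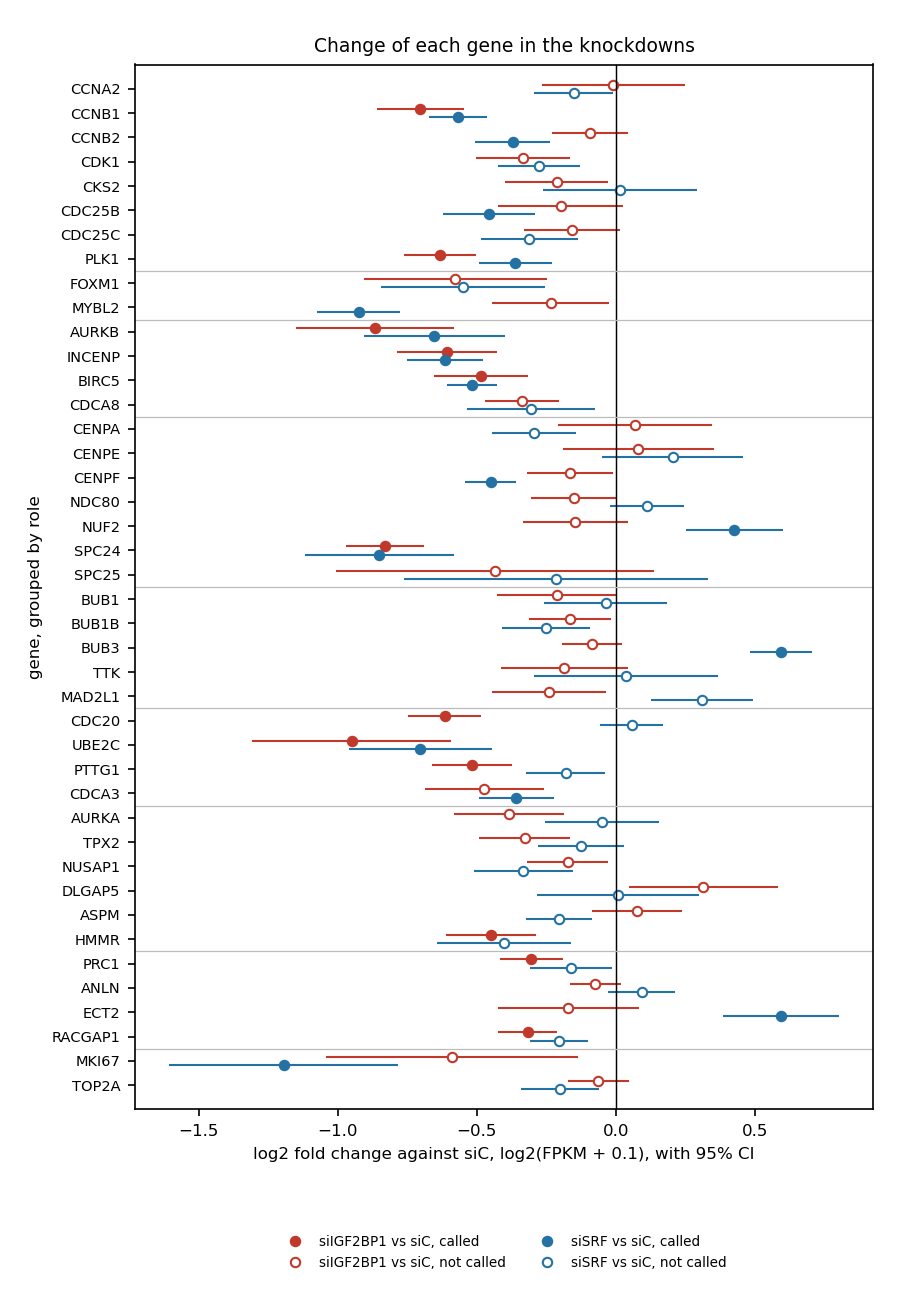
Log2 fold changes against siC (x axis, log2(FPKM + 0.1), bars are 95% confidence intervals) of the 42 genes (y axis, grouped by role) in siIGF2BP1 (red) and siSRF (blue), 3 libraries per group. Filled points are called at an adjusted p of at most 0.01. Filled red points all lie left of 0 (12 genes), and filled blue points lie on both sides (13 left, 3 right).

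Downstream of the checkpoint, CDC20 activates the APC/C, UBE2C is its ubiquitin-conjugating enzyme, and PTTG1 encodes securin, which holds separase inactive until anaphase. All 4 genes of this role, with CDCA3, had lower values in siIGF2BP1, and 3 of them were called. CDC20 measured 109.5, 110.2 and 111 FPKM in siC, 75.8, 66.9 and 73.3 in siIGF2BP1 and 109, 121 and 115 in siSRF. The siC libraries were nearly equal, siIGF2BP1 lay far below them, and siSRF overlapped them. CDC20 was at 65.3% of siC in siIGF2BP1 (-0.62, SE 0.054, adjusted p = 0.00127) and 104% in siSRF (0.057, adjusted p = 0.457, with a 95% interval from -0.055 to 0.17). The knockdowns differed (-0.67, SE 0.062, adjusted p = 0.000458). PTTG1 measured 82.5, 85.6 and 75.01 FPKM in siC, 58.3, 55.4 and 55.95 in siIGF2BP1 and 69.1, 73.1 and 72.03 in siSRF. Its groups did not overlap, and siIGF2BP1 was lowest. It was at 69.8% of siC in siIGF2BP1 (-0.52, SE 0.059, adjusted p = 0.00298) and 88.1% in siSRF (-0.18, adjusted p = 0.0738), and the knockdowns differed (-0.34, SE 0.038, adjusted p = 0.00108). PTTG1 has close paralogs, and how reads shared with them were counted is not known here.

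UBE2C measured 64.1, 68.9 and 51.6 FPKM in siC, 34.1, 26.3 and 35.1 in siIGF2BP1 and 36.6, 37.7 and 38.2 in siSRF. All 6 knockdown values were under the siC range. UBE2C was at 51.7% of siC in siIGF2BP1 (-0.95, SE 0.15, adjusted p = 0.00867) and 61% in siSRF (-0.70, SE 0.11, adjusted p = 0.00531), and the difference between them was not called (-0.25, adjusted p = 0.144). When genes of any value above 0 were tested, the call in siIGF2BP1 ended (adjusted p = 0.0113). CDCA3 was called lower in siSRF, from 10.3 ± 0.282 to 8.03 ± 0.274 FPKM (SD, n = 3; -0.36, SE 0.056, adjusted p = 0.00614), and was at 72% of siC in siIGF2BP1 with an adjusted p of 0.0159. The call of CDCA3 ended with GC content and length taken out (log2 fold change -0.27, adjusted p = 0.0239) and with all 9 libraries in a single fit (adjusted p = 0.0105).

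**Figure D3:**
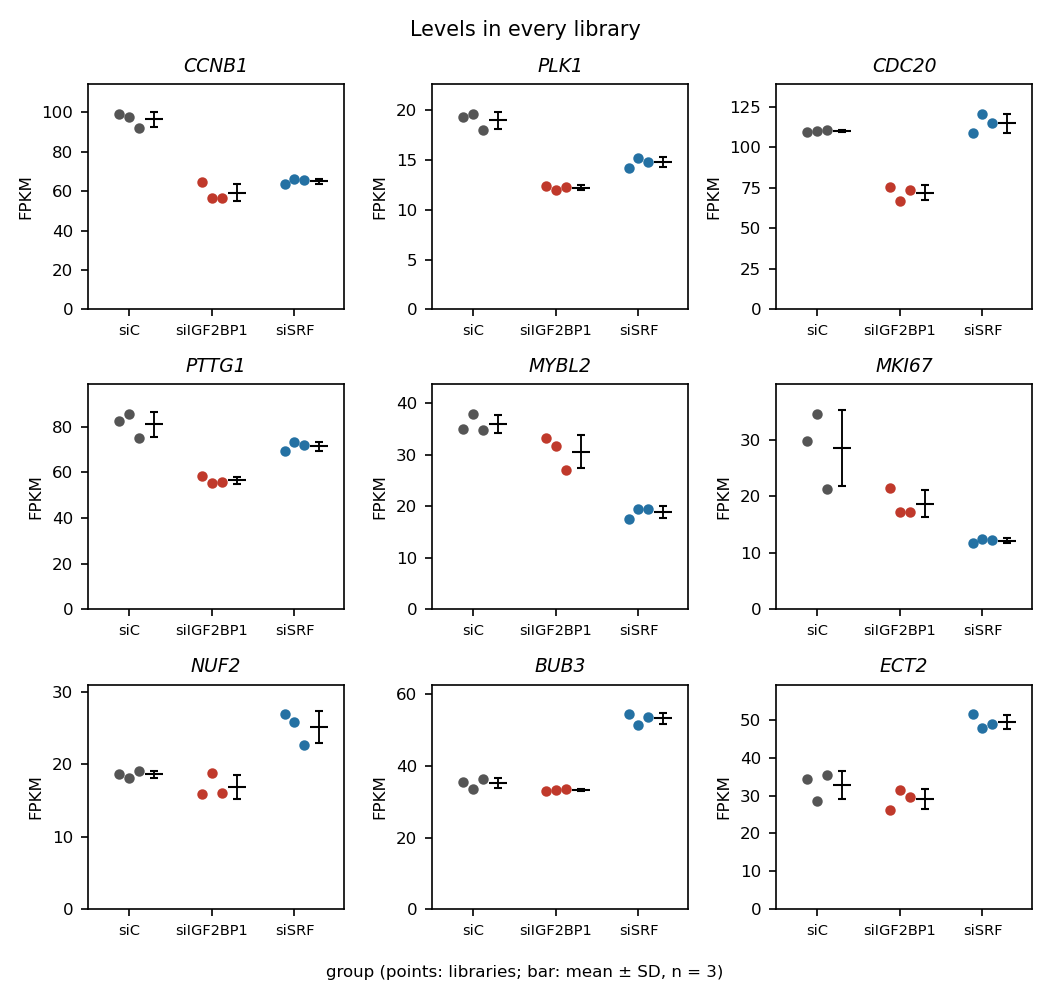
FPKM (y axes, from 0) of 9 members in the 3 libraries of each group (points) with mean ± SD (bars, n = 3). CCNB1 and PLK1 are low in both knockdowns, CDC20 and PTTG1 lowest in siIGF2BP1, MYBL2 and MKI67 lowest in siSRF, and NUF2, BUB3 and ECT2 highest in siSRF.

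Of the 6 spindle assembly genes, 1 was called lower in siIGF2BP1 and 0 in siSRF. At an unadjusted p under 0.05 in siIGF2BP1, 4 were lower and 1, DLGAP5, was higher (14.5% and 14.7% of all genes tested). Limma-voom called 3 lower and 1 higher there, against 8.48% and 8.59%. In siSRF, 3 of the 6 genes (HMMR, NUSAP1 and ASPM) were lower at an unadjusted p under 0.05 (16.0% of all genes tested), and limma-voom called the same 3. HMMR, a spindle-associated protein also known as a hyaluronan receptor, measured 40.5, 35.1 and 40.1 FPKM in siC, 27.2, 28.4 and 28.97 in siIGF2BP1 and 32.7, 29.1 and 25.9 in siSRF. It fell to 73.1% of siC in siIGF2BP1 (-0.45, SE 0.067, adjusted p = 0.00749). The siSRF libraries were also below siC, at 75.8%, but were more scattered and not called (-0.40, adjusted p = 0.0307). AURKA, the kinase of centrosomes and spindle poles, measured 52.4, 49.2 and 60.8 FPKM in siC, 40.9, 40.4 and 42.6 in siIGF2BP1 and 54.4, 52.2 and 49.6 in siSRF. Its siIGF2BP1 libraries lay below all others. AURKA was at 76.3% of siC in siIGF2BP1 with an adjusted p of 0.025 and at 96.2% in siSRF, and only the direct comparison was called (-0.33, SE 0.046, adjusted p = 0.00228). DLGAP5, which encodes the spindle protein HURP, was the only member whose siIGF2BP1 libraries all lay above siC. It measured 18.3, 14.8 and 20.1 FPKM in siC, 21.8, 22.2 and 21.7 in siIGF2BP1 and 19.2, 16.9 and 17.1 in siSRF. It was not called against siC (0.31, adjusted p = 0.117 in siIGF2BP1), and it was higher in siIGF2BP1 than in siSRF (0.31, SE 0.058, adjusted p = 0.00869), a call that ended with every gene above 0 tested (adjusted p = 0.0108) and with all 9 libraries in a single fit (adjusted p = 0.0545). TPX2, which activates Aurora A on the spindle, was at 79.6% and 91.5% of siC, the microtubule-binding NUSAP1 at 88.6% and 79.4%, and the spindle-pole protein gene ASPM at 106% and 86.7%. None of these 3 was called in any comparison.

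In the midzone and cytokinesis group, PRC1 bundles the microtubules between the separating chromosomes, RACGAP1 is part of centralspindlin, and ECT2 activates RhoA to build the contractile ring with anillin (ANLN). ECT2 measured 34.3, 28.6 and 35.4 FPKM in siC, 26.1, 31.5 and 29.6 in siIGF2BP1 and 51.5, 47.8 and 48.8 in siSRF. Every siSRF library lay above all others, and siC and siIGF2BP1 overlapped. ECT2 was at 151% of siC in siSRF (0.59, SE 0.086, adjusted p = 0.00471) and 88.7% in siIGF2BP1 (-0.17, adjusted p = 0.343), and the knockdowns differed (-0.77, SE 0.074, adjusted p = 0.000568). With GC content and length taken out, the log2 fold change of ECT2 in siSRF was 0.36 and was still called (adjusted p = 0.00635). RACGAP1 measured 36.4, 34.6 and 37.1 FPKM in siC, 29.04, 28.3 and 29.4 in siIGF2BP1 and 31.3, 30.6 and 31.9 in siSRF. PRC1 measured 22.8, 24.4 and 24.4 FPKM in siC, 19.7, 19.3 and 19.04 in siIGF2BP1 and 21.3, 22.8 and 20.1 in siSRF. For both genes the groups did not overlap, with siC highest and siIGF2BP1 lowest. For PRC1 the siC and siSRF libraries nearly met, at 22.81 FPKM for the lowest of siC and 22.75 for the highest of siSRF. RACGAP1 was at 80.2% of siC in siIGF2BP1 (-0.32, SE 0.044, adjusted p = 0.00596) and 86.8% in siSRF (-0.20, adjusted p = 0.0176). PRC1 was at 80.9% (-0.30, SE 0.048, adjusted p = 0.00881), a call that ended with robust variance moderation (adjusted p = 0.0108), and 89.5% (-0.16, adjusted p = 0.115). ANLN was at 95% and 107% of siC and was not called.

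The genes of the mitotic chromosome were MKI67, which encodes the Ki-67 protein that coats mitotic chromosomes and serves as a proliferation marker, and topoisomerase II alpha (TOP2A). MKI67 measured 29.8, 34.6 and 21.3 FPKM in siC, 21.5, 17.3 and 17.3 in siIGF2BP1 and 11.7, 12.5 and 12.3 in siSRF. Its siC libraries were widely spread, and the siSRF libraries were tightly grouped below all 6 others. MKI67 was at 42.7% of siC in siSRF (-1.19, SE 0.17, adjusted p = 0.00442), the lowest of the 42 ratios in either knockdown, and at 65.4% in siIGF2BP1, where 1 siIGF2BP1 library exceeded the lowest siC library and the change was not called (-0.59, adjusted p = 0.0899). Limma-voom called that change lower (adjusted p = 1.4e-05). MKI67 was higher in siIGF2BP1 than in siSRF (0.61, SE 0.094, adjusted p = 0.00380), a call that ended with all 9 libraries in a single fit (adjusted p = 0.0218). TOP2A measured 82.8, 75.97 and 76.9 FPKM in siC, 75.5, 75.4 and 74.6 in siIGF2BP1 and 72.2, 68.7 and 64.2 in siSRF. It was at 95.7% and 87.1% of siC and was not called (-0.062, adjusted p = 0.434 and -0.20, adjusted p = 0.0540).

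In the direct comparison of the knockdowns, 8 members were called lower in siIGF2BP1 than in siSRF and 3 higher, against 11.2% and 8.82% of 22311 genes tested. The libraries separated downward for 16 members (23.3% of all genes tested) and upward for 10 (22.8%). The median log2 fold change was -0.11, beside 0.02 over all genes tested. Over the 4715 genes averaging 10 FPKM or more, it was -0.16, and 33.3% were called lower and 16.6% higher. Among these 4715 genes, the libraries separated downward for 2334 and upward for 1221. The 8 genes were PLK1, NUF2, BUB3, MAD2L1, CDC20, PTTG1, AURKA and ECT2, and the 3 were MYBL2, DLGAP5 and MKI67. Of the 7 genes lower in both knockdowns, PLK1 was also called in the direct comparison. The remaining 6 (CCNB1, AURKB, INCENP, BIRC5, SPC24 and UBE2C) had differences between -0.25 and 0.03, which does not show that the knockdowns acted alike.

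**Figure D4:**
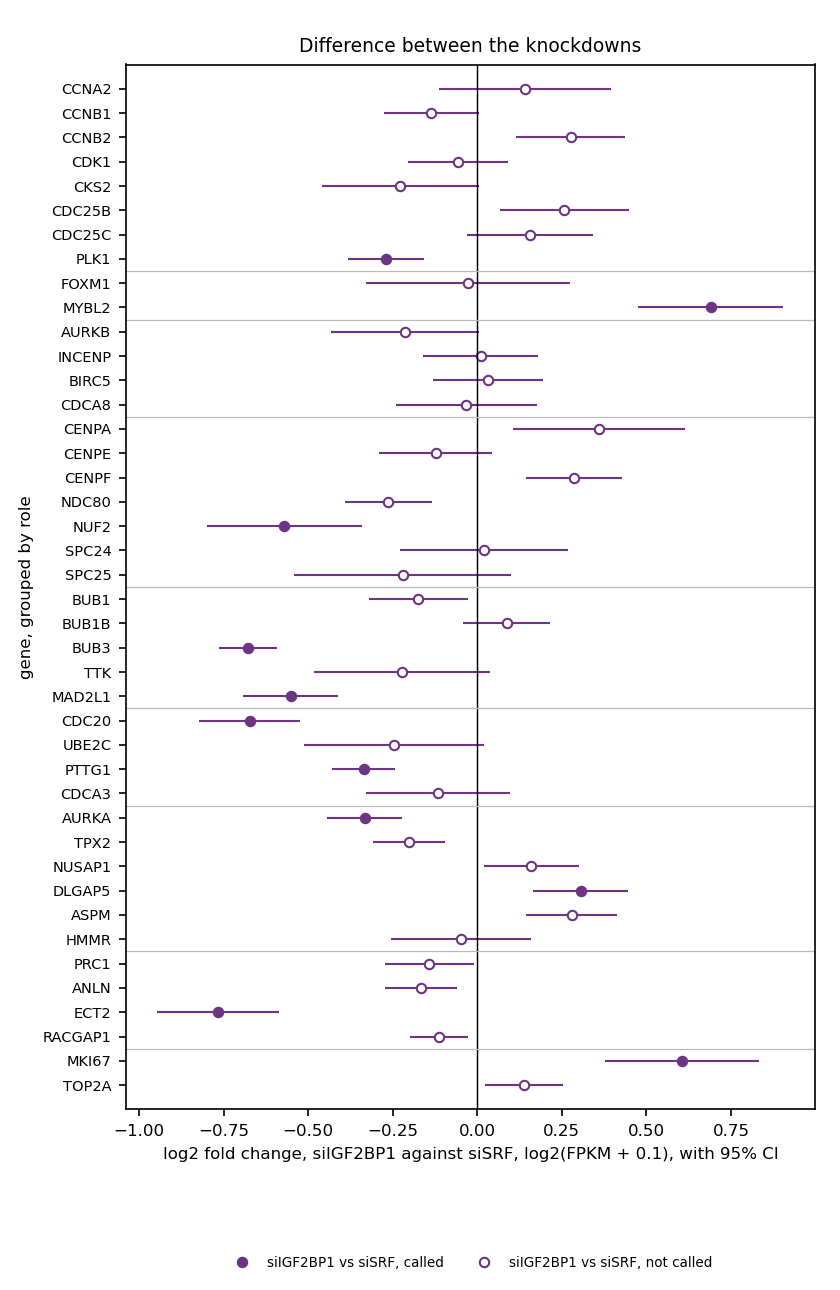
Log2 fold change of siIGF2BP1 against siSRF (x axis, log2(FPKM + 0.1), bars are 95% confidence intervals) for the 42 genes (y axis, grouped by role), 3 libraries per group. Filled points are called at an adjusted p of at most 0.01. The range runs from -0.77 for ECT2 to 0.69 for MYBL2.

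With 3 libraries per group, the counts depended on each library. Leaving out siC library 1, 2 or 3 gave 4, 5 and 7 members lower in siIGF2BP1 and 5, 5 and 10 lower in siSRF. Leaving out siIGF2BP1 library 1, 2 or 3 gave 5, 4 and 3 lower, and leaving out siSRF library 1, 2 or 3 gave 5, 6 and 5. In every one of the 6 leave-outs, the calls of PLK1, SPC24 and CDC20 held in siIGF2BP1, those of CCNB1, INCENP, BIRC5, CENPF, MYBL2 and BUB3 in siSRF, and those of BUB3, MAD2L1, CDC20, PTTG1, ECT2 and MYBL2 in the direct comparison. The other 24 of the 39 calls ended in at least 1 leave-out, and none of the 39 changed sign.

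The wider mitotic machinery was taken from lists of 136 further genes. In siIGF2BP1, 20 were called lower and 3 higher (14.7% and 2.21%, against 12.5% and 8.73% of genes averaging 10 FPKM or more and 3.57% and 3.55% of all genes tested), with a median log2 fold change of -0.09. In siSRF, 22 were called lower and 13 higher (16.2% and 9.56%, against 12% and 21.2%, and 5.34% and 6.85%), with a median of -0.03. In the direct comparison 33 of 135 tested were lower and 12 higher (24.4% and 8.89%, against 33.3% and 16.6%, and 11.2% and 8.82%). The share called lower was thus near that of genes of 10 FPKM or more in siIGF2BP1, and below it in the direct comparison. The 42 members had a lower median than these 136 genes pooled in both knockdowns, a difference given as a description. It did not hold for every list. In siIGF2BP1 the median was -0.28 for other checkpoint genes, -0.23 for mitotic entry and exit genes and -0.22 for centrosome and spindle genes. It was -0.0048 for further kinetochore genes and 0.064 for APC/C genes. In siSRF the list medians ran from -0.20 (MuvB and DREAM genes) to 0.22 (further kinetochore genes). By list, 8 of 37 centrosome and spindle genes were called in siIGF2BP1 and 9 in siSRF, all of them lower. Of 30 further kinetochore genes, 3 were lower and 1 higher in siIGF2BP1, and 3 lower and 5 higher in siSRF. Of 17 APC/C genes, 1 was called, lower, in siIGF2BP1, and 2 were lower and 3 higher in siSRF.

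Among them, ZWINT, a kinetochore protein gene, fell from 44.2, 46.5 and 42.04 FPKM in siC to 26.7, 26.5 and 24.4 FPKM in siIGF2BP1 (-0.77, SE 0.058, adjusted p = 0.000738). UBE2S, which elongates ubiquitin chains for the APC/C with UBE2C, fell to 57.1% of siC in siIGF2BP1 (-0.81, SE 0.081, adjusted p = 0.00188), and the chromosome motor gene KIF4A to 72.3% (-0.47, SE 0.041, adjusted p = 0.00121). STAG2, a cohesin subunit gene, rose in both knockdowns, to 128% of siC in siIGF2BP1 (0.36, SE 0.05, adjusted p = 0.00603) and 157% in siSRF (0.65, SE 0.052, adjusted p = 0.000700). In siSRF, TFDP1, the dimer partner of E2F factors, fell to 59.2% of siC (-0.75, SE 0.047, adjusted p = 0.000389), and the spindle genes FAM83D and CKAP2L to 71.7% (-0.48, SE 0.043, adjusted p = 0.000990) and 58.2% (-0.77, SE 0.07, adjusted p = 0.00102). MIS12, a core kinetochore gene, rose to 166% of siC in siSRF (0.73, SE 0.072, adjusted p = 0.00129), and CENPL rose to 145% (0.53, SE 0.057, adjusted p = 0.00162). SPDL1, which recruits dynein to kinetochores, and RBL2, a pocket protein of the repressive DREAM complex, rose in siIGF2BP1 to 134% (0.42, SE 0.06, adjusted p = 0.00625) and 137% (0.45, SE 0.071, adjusted p = 0.00868). Between the knockdowns, CKS1B, CENPO and MIS12 were lower in siIGF2BP1 (log2 differences -0.68, -0.70 and -0.80), and KIF20A, TFDP1 and RBL1 were higher (0.75, 0.74 and 0.41, each with an adjusted p under 0.01).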

How the data were processed

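Total RNA of ES-2 cells was depleted of rRNA, made into directional libraries and sequenced by the authors, who clipped reads (cutadapt 1.14), aligned them to hg38 (HISAT2 2.1.0), handled alignments with SAMtools 1.5, counted them on Ensembl genes (featureCounts 1.5.3) and scaled them with edgeR 3.18.1. Versions are from the submitters' processing notes, and the strand setting of the counting is not given in the sources used here. The deposited values are FPKM per library, in 1 table per knockdown, with identical siC values in both. The authors' own fold changes, p-values and FDR in these tables were not used. Value times length gave whole reads for 100% of values (tolerance 0.01 read).

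Genes averaging 0.1 FPKM or more in the 6 libraries compared were tested on log2(FPKM + 0.1) with limma 3.58.1 (R 4.3.3, eBayes with trend, two-sided), Benjamini-Hochberg adjusted over all genes tested, and called at an adjusted p of at most 0.01. FPKM plus 0.1 understates changes of low genes. An exact permutation test of 3 against 3 cannot go below 0.1. GC content was taken from reference transcripts (GENCODE). The members were taken by name with no threshold on a value, but they, the lists and the tests were chosen with earlier results of these data known. All members are named. Values per library are given for the 3 genes of each role with the smallest p in any comparison, and up to 3 genes per direction are named from other lists.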

Additional observations from a re-analysis of the deposited data

Results flagged for a closer look

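For 11 members the effects of the knockdowns differed by the test of the difference itself, siIGF2BP1 against siSRF with limma over all genes tested, on 3 libraries each. The log2 difference, siIGF2BP1 minus siSRF, was -0.77 for ECT2, -0.68 for BUB3, -0.67 for CDC20, -0.57 for NUF2, -0.55 for MAD2L1, -0.34 for PTTG1, -0.33 for AURKA and -0.27 for PLK1. It was 0.69 for MYBL2, 0.61 for MKI67 and 0.31 for DLGAP5. Of the 11 genes, CDC20 and PTTG1 were called lower than siC in siIGF2BP1, MYBL2 and MKI67 in siSRF, and PLK1 in both. NUF2, BUB3 and ECT2 were called higher in siSRF, and MAD2L1, AURKA and DLGAP5 were not called against siC. With limma-voom, MKI67 was also called lower in siIGF2BP1. The share of all genes tested that was called in this comparison was 11.2% lower and 8.82% higher. Among the 4715 genes averaging 10 FPKM or more it was 33.3% and 16.6%, above the members' 19.0% and 7.14%.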

How the results depend on the processing

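No call of the 39 made on members reversed under any alternative, and all 39 were kept with pseudocounts of 0.01 or 1, median-ratio rescaling, only genes averaging 1 FPKM or more, adjustment over protein-coding genes, a threshold of 0.05 and limma-voom. With GC content and length taken out 34 were kept, with all 9 libraries in a single fit or every gene above 0 tested 36, and with robust moderation 38. Members called lower in siIGF2BP1 (12) became 19 with limma-voom, and those called higher (0) became 1. Members called lower in siSRF (13) became 21 with limma-voom and 22 at a threshold of 0.05. Members higher in siIGF2BP1 than in siSRF (3) became 5 with genes averaging 1 FPKM or more, 8 with limma-voom, 5 with protein-coding genes, 7 at 0.05 and 8 with GC content and length taken out. Over all genes tested, the 1968 called higher became 2018, 3282, 2010, 3345 and 2048 in the same order. Taking GC content and length out moved the medians to -0.31 in siIGF2BP1, -0.29 in siSRF and -0.075 in the direct comparison.

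Leaving out 1 library at a time gave 3 to 7 members lower and 0 higher in siIGF2BP1 (medians -0.29 to -0.23), 5 to 10 lower and 1 to 3 higher in siSRF (-0.27 to -0.22), and 5 to 9 lower and 1 to 3 higher in the direct comparison (-0.12 to -0.098). A leave-out has fewer libraries to estimate the spread, and 24 of the 39 calls ended in at least 1.

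Same-numbered libraries did not visibly deviate together (mean correlations -0.0038, 0.00081 and -0.028, from -0.044 to 0.019). By comparison, 0, 1 and 0 of 3 libraries correlated best with their own number. With 3 libraries per group this cannot exclude a weak pairing by number, so fits with a replicate block are also given. The fit with a replicate block called 0 members lower in siIGF2BP1, 5 lower and 1 higher in siSRF, and 3 lower and 0 higher in the direct comparison. The block with GC content and length taken out called 5 lower in siIGF2BP1, 7 lower and 1 higher in siSRF, and 5 lower and 1 higher directly (medians -0.31, -0.29 and -0.075). Of the 39 calls, 9 and 16 were kept in these fits, which spend degrees of freedom on the block.

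Over all genes, 796 were lower and 792 higher in siIGF2BP1, 1167 and 1498 in siSRF and 2492 and 1968 in the direct comparison. Limma-voom gave 1891 and 1914, 2343 and 2780, and 3630 and 3282. A threshold of 0.05 gave 1836 and 1760, 2306 and 2899, and 3787 and 3345. The fit of all 9 libraries gave 1308 lower in siIGF2BP1. The block gave 31 and 60, 244 and 257, and 1203 and 872, and with GC content and length taken out 214 and 224, 213 and 253, and 1440 and 1007. Leave-outs gave 224 to 329 and 212 to 420, 482 to 673 and 464 to 1123, and 1577 to 1951 and 1214 to 1455.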

Other observations

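DNA replication precedes mitosis, and 42 of its genes were listed. In siIGF2BP1, 5 were called lower and 1 higher (11.9% and 2.38%, median log2 fold change -0.15), against 12.5% and 8.73% of genes averaging 10 FPKM or more and 3.57% and 3.55% of all genes tested. In siSRF, 13 were lower and 1 higher (31.0% and 2.38%, median -0.19), against 12% and 21.2%, and 5.34% and 6.85%. RRM2, a subunit gene of ribonucleotide reductase, fell to 71.3% of siC in siIGF2BP1 (-0.49, SE 0.046, adjusted p = 0.00160), and CCNE1, which encodes cyclin E1, to 45.3% (-1.10, SE 0.15, adjusted p = 0.00522). RFC5, of the clamp loader, fell to 76.1% (-0.39, SE 0.06, adjusted p = 0.00820). In siSRF, the licensing factor gene CDT1 fell to 62.5% of siC (-0.67, SE 0.05, adjusted p = 0.000559), PCNA, the sliding clamp, to 67.3% (-0.57, SE 0.052, adjusted p = 0.00101) and thymidine kinase (TK1) to 62.2% (-0.68, SE 0.068, adjusted p = 0.00136). In the direct comparison 7 were lower and 11 higher in siIGF2BP1 (16.7% and 26.2%), against 33.3% and 16.6%, and 11.2% and 8.82%. The helicase subunit gene MCM6 measured 19.8, 23.4 and 25.2 FPKM in siC, 30.1, 30.7 and 30.2 in siIGF2BP1 and 12.97, 13.6 and 12.7 in siSRF, and the knockdowns differed (1.21, SE 0.042, adjusted p = 1.80e-05). MCM4 showed the same order, with 56.2, 54.3 and 62.97 FPKM in siC, 76.1, 76.2 and 79.5 in siIGF2BP1 and 50.3, 52.2 and 49.4 in siSRF (0.61, SE 0.037, adjusted p = 0.000107), and CDT1 differed by 0.62, SE 0.04, adjusted p = 0.000124. RefSeq windows of 35 of these genes with 45 starts held the CHR letters in 15.6% and the E2F letters in 40.0%. The shares were 75.0% and 9.09% for the members, and 40.3% and 13.8% for the wider mitosis lists.

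Of 7 CDK inhibitor genes 6 were tested. In siIGF2BP1, 1 was called lower and 0 higher, against 3.57% and 3.55% of all genes tested. In siSRF, 1 other than CDKN1A was called lower and 0 higher, against 5.34% and 6.85%. The log2 fold change was negative for 2 of the 6 in siIGF2BP1 (median 0.14) and for 5 in siSRF (median -0.46). CDKN1A, which encodes p21, fell in siIGF2BP1 from 2.48, 2.65 and 2.77 FPKM to 1.41, 1.17 and 0.929 FPKM (-1.12, SE 0.18, adjusted p = 0.00997), and measured 1.10, 1.37 and 0.623 FPKM in siSRF without being called (-1.33, adjusted p = 0.0170). Between the knockdowns, CDKN2B (1.16, SE 0.13, adjusted p = 0.000938), CDKN2C (0.91, SE 0.14, adjusted p = 0.00357) and CDKN1B (0.41, SE 0.075, adjusted p = 0.00757) were higher in siIGF2BP1. These were 3 of 6 genes called higher and 0 lower, against 8.82% and 11.2% of all genes tested. None of the 3 was called higher in siIGF2BP1 than in siC.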
